A study of Mus musculus with 6 samples.

Results

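The Hippo pathway was followed here through 10 of its genes in infarcted mouse hearts. These were the effectors Yap1 and Wwtr1 (which encodes Taz), the transcription factors Tead1, Tead2, Tead3 and Tead4, the kinases Lats1, Lats2 and Stk3 (which encodes Mst2), and Sav1, the scaffold of Stk3. The genes were taken by symbol from a table of 26012 genes, and all 10 were found, each in a single row. All 10 had a mean normalized count of at least 1, so they passed the filter on low values and entered the comparison.

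RNA was taken from fresh ventricular tissue in 6 samples, from C57BL/6 males aged 8 weeks, and the labels name no transgene or deleted gene. Every heart had MI (myocardial infarction), made by tying off the left anterior descending (LAD) coronary artery. Each also had an injection of mimic into the heart, at 10 μg per mouse. The 3 control hearts received control mimic, and the other 3 received miR-19a/19b mimics. A mimic is a synthetic RNA that acts as the mature miRNA. All hearts were harvested on day 4, and no uninjured heart was among the libraries, so the effect of MI itself was not measured. The libraries are of whole tissue and hold all of its cell types.

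The Hippo pathway limits organ size and cell division. Stk3 and its relative Stk4, bound to Sav1, phosphorylate Lats1 and Lats2. These kinases phosphorylate Yap and Taz, which are then held in the cytoplasm or degraded. When the kinases are inactive, Yap and Taz enter the nucleus and bind Tead factors, which carry the DNA-binding domain. In mouse hearts, loss of Sav1 or active Yap leads cardiomyocytes to divide. Control of this pathway acts largely on protein phosphorylation and location, and neither was measured by these mRNA libraries.

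The 2 miRNAs are shown first, because their seed sets which transcripts they can pair with. Both are on mouse chromosome 14 on the + strand (RefSeq, GRCm38.p6). The mature miR-19a lies at chr14:115044048-115044070, and miR-19b is given here from Mir19b-1 at chr14:115044358-115044380. Capitals mark the seed, bases 2 to 8 from the 5′ end.

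mmu-miR-19a-3p: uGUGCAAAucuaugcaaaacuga

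mmu-miR-19b-3p: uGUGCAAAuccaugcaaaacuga

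The 2 mature miRNAs are 23 bases long, have the same seed and differ at 1 base outside it. The sequences of the injected duplexes themselves were not used here.

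Matches to this seed were searched in the longest annotated 3′ UTR of each gene, on its transcribed strand (GENCODE M21). The letters searched were TTTGCACA (8mer), TTTGCAC (7mer-m8) and TTGCACA (7mer-A1), with a site counted once under its longest form. Of the 10 genes, Tead1 and Lats1 each held 1 match, and 0 held the 8mer. The site of Tead1 was a 7mer-m8 that starts at base 1713 of an 8147-base 3′ UTR. The site of Lats1 was a 7mer-A1 that starts at base 2011 of 3450. Both are printed within 30 bases of GRCm38, with the match in capitals. The printed 30 bases lie at chr7:112900358-112900387 for Tead1 and at chr10:7715005-7715034 for Lats1, both on the + strand.

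Tead1: aagcatggcttgtttTTTGCACtaaggcaa

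Lats1: atatcctttgactttaTTGCACAgcgctca

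The other 8 genes held none of these letters in 3′ UTRs of 716 (Tead2) to 3277 bases (Wwtr1). Of the 15821 tested genes with a 3′ UTR, 18.4% held a match and 5.55% held an 8mer. Among the 6486 genes whose 3′ UTR was at least as long as the median of the Hippo genes, 1424 bases, the share with a match was 33.2%. Longer 3′ UTRs hold more such words, and that of Tead1 is the longest of the 10. A match is a description of letters and does not show pairing.

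The authors deposited normalized counts, in which the reads of a gene are scaled by a size factor for sequencing depth. Between 19398196 and 23645308 reads per heart lay on genes. For the Hippo genes the reads behind a value ranged from 140 (Tead4, control mimic replicate 2) to 4851 (Tead1, control mimic replicate 3). Groups were compared with limma on log2(normalized count + 1) over 21126 genes, with Benjamini and Hochberg (BH) adjustment over all of them. All log2 fold changes below are mimic over control on that scale, and positive values are higher in miR-19a/19b mimic hearts. The methods of the study call the 3 hearts of each group biological replicates. One heart stood apart. In miR-19a/19b mimic replicate 3, mitochondrial genes took 3.18% of reads, against 4.18% to 6.93% in the others, and 10 cardiomyocyte markers summed to 325900 normalized counts, against 535900 to 944900. In miR-19a/19b mimic replicate 1, 14 skeletal muscle genes summed to 3543 normalized counts, against 37.08 to 76.07 elsewhere. Fold changes of the Hippo genes are therefore also given without each of these libraries, and those of other named genes where the direction changes. In bulk tissue, fewer cells of a type and less RNA per cell cannot be told apart.

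No difference between the mimic groups was detected in any of the 10 Hippo genes. Of the 10 genes, 6 had a lower mean log2 level in miR-19a/19b mimic hearts and 4 a higher one, with log2 fold changes from -0.16 (Stk3) to 0.16 (Tead2) and a median of -0.08. The median over all genes tested was 0.00. At an adjusted p-value under 0.05 (limma, BH), 0 of the 10 were called, where 0% of all 21126 genes were. At an unadjusted p-value under 0.05, 0 of the 10 were called, where 4.01% of all genes were, 2.63% lower and 1.39% higher. DESeq2 and edgeR on the recovered reads also gave 0 of the 10 at an unadjusted p-value under 0.05. The smallest unadjusted p-value, 0.195, was that of Stk3. The 95% intervals of all 10 included no change, and they ran from 0.677-fold (Tead1) to 1.52-fold (Tead2). The spread between hearts was also set beside the error from read counts, which it includes, and no test separated the parts. In control hearts the coefficient of variation (CV, SD over mean) was larger than the counting error in 9 of the 10. The counting error is the mean over the 6 hearts of 1 divided by the square root of the reads.

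**Figure D1:**
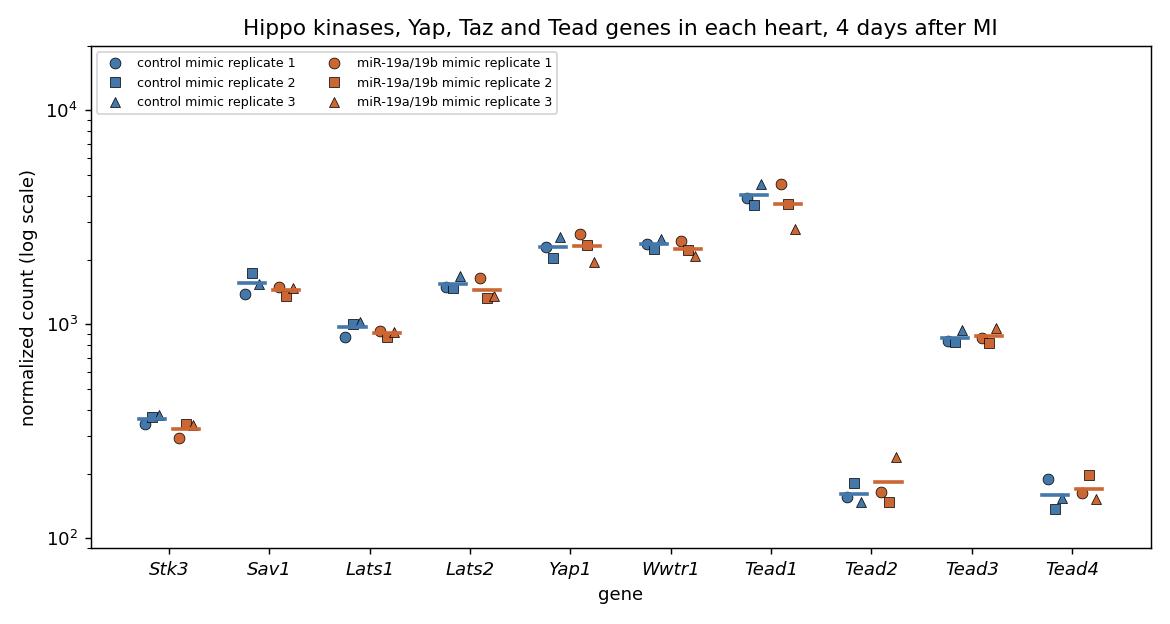
Normalized counts (log axis) of the 10 Hippo genes in each heart. Points are hearts, with a shape for each replicate number, and horizontal bars are group means of 3 hearts. Heights should be compared within a gene, since longer transcripts give more reads. The groups overlap in 9 genes, and in Stk3 the lowest control heart (341.5) sits just above the highest mimic heart (341.3).

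Yap1 and Wwtr1 encode the co-activators Yap and Taz, on which the kinases act. Yap1 (ENSMUSG00000053110, chromosome 9, 7931999 to 8004596, - strand; gene positions are as the authors list them, on GRCm38) had 2307, 2049 and 2551 normalized counts in control mimic replicates 1, 2 and 3. The values were 2654, 2340 and 1964 in replicates 1, 2 and 3 of the miR-19a/19b mimic. The groups overlapped completely, with the highest and the lowest of the 6 values both in mimic hearts. The means were 2302 ± 251 (SD, n = 3) and 2320 ± 345.6 (n = 3). The log2 fold change of Yap1 was 0.01 (standard error 0.14; BH-adjusted p = 1, limma), with a 95% interval of 0.809-fold to 1.25-fold.

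Wwtr1 (ENSMUSG00000027803, chromosome 3, 57455649 to 57575910, - strand) had 2380, 2253 and 2505 normalized counts in control hearts and 2466, 2216 and 2094 in mimic hearts. These groups also overlapped, and the 6 hearts lay within 1.20-fold of each other. Its log2 fold change was -0.08 (standard error 0.10; BH-adjusted p = 1, limma), with a 95% interval of 0.804-fold to 1.12-fold. Per kilobase of exon, Wwtr1 was the higher of the pair in control hearts, at 497.8 ± 26.29 (SD, n = 3) normalized counts per kb against 248.7 ± 27.11 for Yap1. Yap1 made up 33.4%, 32.0% and 34.5% of their summed level per kb in control replicates 1, 2 and 3. In the mimic replicates it made up 35.7%, 35.3% and 32.6%. The shares averaged 33.3% ± 1.26 and 34.5% ± 1.67 (SD, n = 3 each), and the shares of the groups overlapped. No test was made on them.

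The Tead factors bind DNA and recruit Yap and Taz to target genes. Tead1, the family member best known from cardiac muscle, was the most abundant of the 4 per kb in every heart. Tead1 (ENSMUSG00000055320, chromosome 7, 112679318 to 112906807, + strand) had 3904, 3601 and 4532 normalized counts in control hearts. It had 4534, 3644 and 2776 in mimic hearts. Mimic replicate 1 was the highest of the 6 hearts and mimic replicate 3 the lowest, so the mimic group enclosed the control group. The log2 fold change of Tead1 was -0.16 (standard error 0.18; BH-adjusted p = 1, limma), with a 95% interval of 0.677-fold to 1.19-fold. Without mimic replicate 3 the log2 fold change turned to 0.03, and without mimic replicate 1 it was -0.33 (unadjusted p-value 0.0742). The CV of Tead1 over mimic hearts was 24.1%, or 15.4% without replicate 3, against 11.8% over control hearts.

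Tead2 is a family member prominent in embryonic tissues. Tead2 (ENSMUSG00000030796, chromosome 7, 45215753 to 45233619, + strand) had 155.8, 181.5 and 148.5 normalized counts in control hearts and 164.6, 147.4 and 241.2 in mimic hearts. Mimic replicate 3 was the highest of the 6, and mimic replicate 2 was the lowest. For Tead2 the log2 fold change was 0.16 (standard error 0.20; BH-adjusted p = 1, limma), with a 95% interval of 0.819-fold to 1.52-fold. It turned to -0.05 without mimic replicate 3. The CV of Tead2 over mimic hearts went from 27.1% to 7.79% without that heart, a value that rests on 2 hearts. Its counting error, averaged over all 6 hearts, was 7.69%.

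Tead3 (ENSMUSG00000002249, chromosome 17, 28331671 to 28350805, - strand) had 833.4, 824.7 and 942.6 normalized counts in control hearts. It had 866.1, 816.5 and 959.5 in mimic hearts. The 6 hearts lay within 1.18-fold, and the log2 fold change of Tead3 was 0.02 (standard error 0.11; BH-adjusted p = 1, limma). Its sign turned to -0.04 without mimic replicate 3. Tead4, a factor needed for the trophectoderm of the early embryo (ENSMUSG00000030353, chromosome 6, 128224288 to 128300823, - strand), had 189.0, 136.6 and 154.1 in control hearts and 162.5, 197.9 and 152.1 in mimic hearts. The lowest value was in a control heart and the highest in a mimic heart, and the groups overlapped. For Tead4 the log2 fold change was 0.10 (standard error 0.17; BH-adjusted p = 1, limma).

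The make-up of the Tead family was alike in 5 hearts and differed in mimic replicate 3. Tead1 took 57.9%, 57.2% and 60.9% of the summed level of the 4 genes per kb in control hearts. It took 61.6%, 56.4% and 46.5% in mimic hearts. Tead2 took 5.66% to 8.17% in the other 5 hearts and 11.4% in mimic replicate 3. Tead3 took 23.8% to 26.5% in those 5 hearts and 32.5% in mimic replicate 3, and Tead4 took 7.81% to 11.6% over all 6. The group means of the Tead1 share were 58.7% ± 1.98 (SD, n = 3) and 54.8% ± 7.67 (n = 3), and the groups overlapped. No test was made on these shares.

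**Figure D2:**
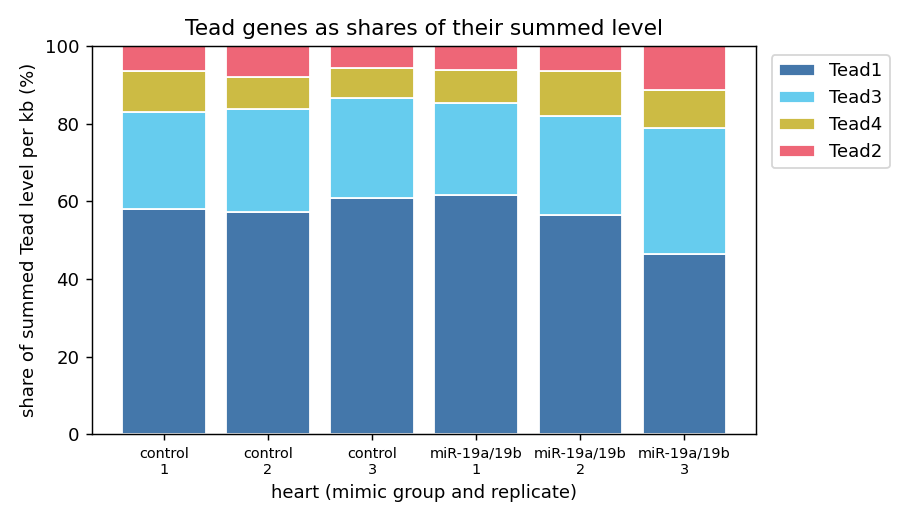
Share (%) of each Tead gene in the summed level of the 4 Tead genes, in normalized counts per kb of exon, for each heart. Stacked bars add to 100% in each heart, and the bar of miR-19a/19b mimic replicate 3 has a smaller Tead1 part (46.5%) and larger Tead3 (32.5%) and Tead2 (11.4%) parts than the other 5 hearts.

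Lats1 and Lats2 are the kinases that phosphorylate Yap and Taz. Lats1 (ENSMUSG00000040021, chromosome 10, 7681209 to 7716458, + strand) had 875.4, 1005 and 1026 normalized counts in control hearts and 936.0, 876.3 and 920.6 in mimic hearts. All 3 mimic values lay between the lowest and the highest control value. In limma, Lats1 had a log2 fold change of -0.09 (standard error 0.10; BH-adjusted p = 1, limma), with a 95% interval of 0.803-fold to 1.11-fold.

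Lats2 (ENSMUSG00000021959, chromosome 14, 57642077 to 57758388, - strand), itself a gene that Yap can induce, had 1501, 1477 and 1676 normalized counts in control hearts. It had 1650, 1332 and 1353 in mimic hearts. Mimic replicates 2 and 3 were below every control heart, and mimic replicate 1 was above 2 of the 3. Between groups, Lats2 had a log2 fold change of -0.11 (standard error 0.12; BH-adjusted p = 1, limma), and it was -0.21 without mimic replicate 1. Lats2 made up 64.2%, 60.6% and 63.1% of the summed Lats level per kb in control hearts and 64.9%, 61.4% and 60.6% in mimic hearts. The mean shares of Lats2, 62.6% ± 1.86 and 62.3% ± 2.26, differed by less than either SD.

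Stk3, upstream of Lats1 and Lats2, was the single gene of the 10 whose groups did not overlap. Stk3 (ENSMUSG00000022329, chromosome 15, 34875496 to 35155806, - strand) had 341.5, 368.9 and 378.4 normalized counts in control hearts and 294.8, 341.3 and 338.9 in mimic hearts. Its nearest values, control replicate 1 and mimic replicate 2, were less than 1 normalized count apart. With TMM scaling factors in place of the authors' size factors the groups overlapped. Over all genes tested, the groups did not overlap for 9.2%, so 1 gene of 10 was near that background. In limma, the log2 fold change of Stk3 was -0.16 (standard error 0.11; BH-adjusted p = 1, limma), with a 95% interval of 0.747-fold to 1.07-fold. Its counting error, 5.40%, was as large as its CV over control hearts, 5.27%.

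Sav1, the scaffold of Stk3, is on chromosome 12 (ENSMUSG00000021067, 69965012 to 69987002, - strand). It had 1391, 1745 and 1539 normalized counts in control hearts and 1503, 1352 and 1483 in mimic hearts. A control heart was the highest and a mimic heart the lowest, with the others mixed. For Sav1 the log2 fold change was -0.10 (standard error 0.11; BH-adjusted p = 1, limma), with a 95% interval of 0.780-fold to 1.11-fold.

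**Figure D3:**
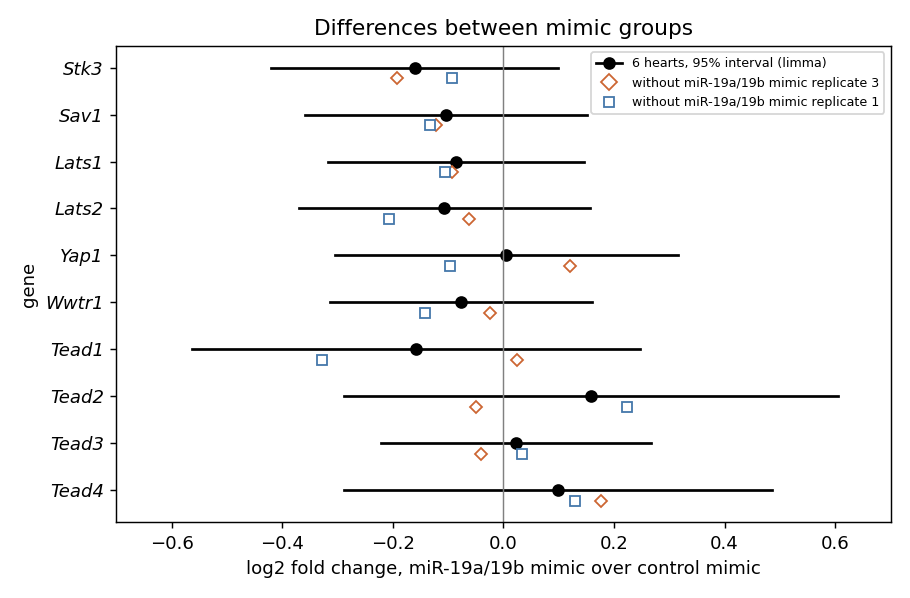
Log2 fold change of each Hippo gene, miR-19a/19b mimic over control mimic. Filled circles with bars are estimates over 6 hearts with 95% intervals (limma), and open symbols leave out a single mimic heart. Every interval includes 0, and the estimates of Tead1, Tead2 and Tead3 change sign without mimic replicate 3.

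Most estimates moved when a mimic heart was left out, and none passed the adjusted threshold then. Without mimic replicate 3, the log2 fold changes of the effectors and kinases were 0.12 for Yap1, -0.02 for Wwtr1, -0.09 for Lats1, -0.06 for Lats2, -0.19 for Stk3 and -0.12 for Sav1. Without mimic replicate 1, they were -0.10 for Yap1, -0.14 for Wwtr1, -0.11 for Lats1, -0.21 for Lats2, -0.09 for Stk3 and -0.13 for Sav1. Yap1 thus lay on either side of 0. Tead4 was at 0.18 without replicate 3 and 0.13 without replicate 1, and without replicate 1 Tead2 was at 0.22 and Tead3 at 0.03.

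Per kb of exon, the order of the genes in control hearts ran from Wwtr1 (497.8) through Sav1 (296.0 ± 33.72, SD, n = 3), Tead1 (295.7 ± 34.99), Yap1 (248.7 ± 27.11) and Lats2 (222.5 ± 15.61) to Lats1 (132.8 ± 11.18) and Tead3 (129.1 ± 9.79). Stk3 (59.36 ± 3.13), Tead4 (44.45 ± 7.41) and Tead2 (33.83 ± 3.62) came last. Neighbours in this order did not differ beyond their spread (mean ± SD) from Sav1 through Tead1 and Yap1 to Lats2, from Lats1 to Tead3, or from Tead4 to Tead2. The 10 genes spanned from the 46.8th (Tead2) to the 89.7th (Wwtr1) percentile of all genes tested per kb. With the transcript lengths in the authors' table, Sav1 came to 617.4 normalized counts per kb in place of 296.0 and was the highest. Tead3 came to 197.1, above Lats1 (132.7), Tead2 to 47.5, above Tead4 (44.45), and Stk3 to 112.1. Tead1 came to 357.1 ± 42.25 and then differed from Yap1 (248.7 ± 27.11) beyond their spread. The exons of Sav1 in GENCODE M21 also share 1336 bases with Atl1 on the opposite strand, and counting by strand was not stated in the sources used here. Those of Lats2 share 2955 bases with Gm49361, a gene model on the same strand whose shared sequence is 100% identical and which has no row in the authors' table. In the authors' positions, the span of Lats2 also overlaps that of Xpo4 on the same strand over 23354 bases. No exon of Lats2 shares bases with Xpo4 in GENCODE M21, and the exons the authors counted were not seen. The levels of Sav1, Lats2, Tead1, Tead2, Tead3 and Stk3 relative to the other genes are uncertain for these reasons, while each comparison between groups uses 1 length throughout.

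The hearts at the ends of the range were often the same for several genes. Mimic replicate 3 was the lowest of the 6 hearts for Yap1, Wwtr1 and Tead1 and the highest for Tead2 and Tead3. Mimic replicate 2 was the lowest for Tead2, Tead3, Lats2 and Sav1. Control replicate 3 was the highest for Wwtr1, Lats1, Lats2 and Stk3. No heart was the lowest or the highest for all of the genes.

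Cell type markers moved with some of these values. The 10 cardiomyocyte markers summed to 625500, 535900 and 687300 normalized counts in control replicates 1, 2 and 3. They summed to 944900, 841500 and 325900 in mimic replicates 1, 2 and 3. For this sum, for Tead1 and for Yap1 alike, the lowest heart was mimic replicate 3, the next lowest was control replicate 2 and the highest was mimic replicate 1. The orders differed at mimic replicate 2. It was above every control heart in this sum, but below control replicates 1 and 3 for Tead1 and below control replicate 3 for Yap1. Tead2 was highest where this sum was lowest. The 8 fibroblast markers summed to 548900 to 898700 and the 6 macrophage markers to 44360 to 70540, with both sums highest in mimic replicate 3. The other sums ranged from 19260 to 24940 for 6 endothelial markers, 28720 to 40340 for 5 smooth muscle markers and 211.8 to 820.7 for 4 epicardial markers. They ranged from 735.9 to 2388 for 5 neutrophil markers, 97.68 to 196.7 for 6 T cell markers, 113.0 to 227.3 for 4 B cell markers and 1834 to 3772 for 3 erythrocyte markers. No marker of these lists was at 0 in all hearts, and each sum overlapped between the groups. Tead4 ranked the 6 hearts in the same order as the epicardial sum did. This match was picked from the orders of all the Hippo genes and all the marker sums. It also rests on small differences, since Tead4 in control replicate 3 (154.1) and mimic replicate 3 (152.1) differed by less than its counting error (7.8%). With the mean log2 level of the cardiomyocyte markers as a covariate, the log2 fold change of Tead1 was -0.19 (standard error 0.09; BH-adjusted p = 0.533, limma), and its unadjusted p-value was 0.0458. Over all the alternatives run, the adjusted p-value of Tead1 lay between 0.533 and 1. The other 9 genes kept an unadjusted p-value above 0.05 in that fit, in which 5.24% of all genes were lower at that threshold. The part of cell composition in the values of Tead1, Yap1, Tead2 and Tead4 was not tested further.

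**Figure D4:**
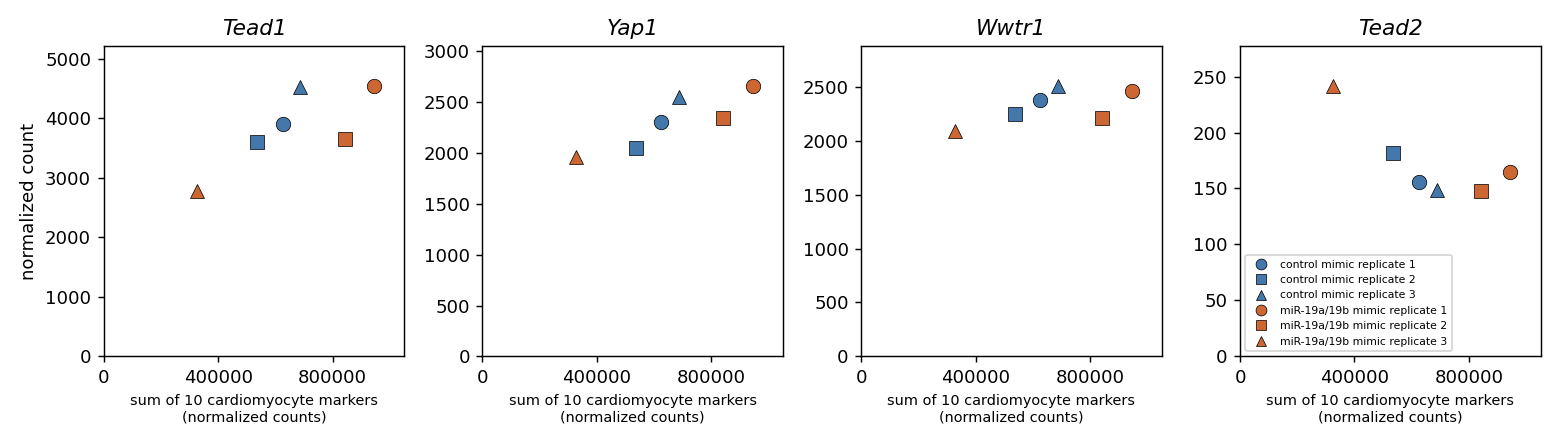
Normalized counts of Tead1, Yap1, Wwtr1 and Tead2 (vertical axes, from 0) against the summed normalized counts of 10 cardiomyocyte markers (horizontal axes). Each point is a heart. MiR-19a/19b mimic replicate 3 has the lowest marker sum, the lowest Tead1 (2776), Yap1 (1964) and Wwtr1 (2094), and the highest Tead2 (241.2).

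Among other genes of the pathway, none differed between the groups at these thresholds. Their list held 22 genes, among them the kinase Stk4, the Mob1 adaptors of the Lats kinases, Nf2, the Wwc, Taok and Map4k4 inputs, the Amot and Ajuba family regulators and the Vgll cofactors of the Tead factors. In limma, 14 of them were lower and 8 higher in mimic hearts, with a median log2 fold change of -0.06 that was -0.13 without mimic replicate 1. At an unadjusted p-value under 0.05, 0 of 22 were called in either direction, against 4.01% of all genes, and the smallest was 0.137, for Mob1b. Taok2, higher in mimic hearts, was the only gene of the 22 whose groups did not overlap, with 2570, 2688 and 2638 normalized counts in control hearts and 2711, 2772 and 2893 in mimic hearts. Over all genes tested, the groups did not overlap for 9.2%, and for 3.9% with the mimic hearts higher. Mob1b and Taok2 were named after their values were seen.

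The 3 most abundant of these genes per kb were Map4k4, Mob1a and Limd1. Map4k4, a kinase that can act on the Lats kinases beside Stk3 and Stk4, had 7363, 6375 and 6835 normalized counts in control hearts and 6792, 6828 and 7987 in mimic hearts. For Map4k4 the log2 fold change was 0.07 (standard error 0.12; BH-adjusted p = 1, limma), and -0.01 without mimic replicate 3. Mob1a, a co-activator of the Lats kinases, had 2838, 3349 and 2907 in control hearts and 2320, 2711 and 3179 in mimic hearts. The lowest 2 values of Mob1a were in mimic hearts, while mimic replicate 3 lay among the controls, and the log2 fold change was -0.16 (standard error 0.14; BH-adjusted p = 1, limma). Limd1, an Ajuba family inhibitor of the Lats kinases, had 2764, 2527 and 2585 in control hearts and 2959, 2545 and 2228 in mimic hearts. For Limd1 the log2 fold change was -0.04 (standard error 0.12; BH-adjusted p = 1, limma), and it turned to 0.07 without mimic replicate 3. The mimic group held both its highest and its lowest value.

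Without mimic replicate 3, 3 of the 22 genes were lower at an unadjusted p-value under 0.05, where 6.08% of all genes were. Mob1a then had a log2 fold change of -0.27, with an unadjusted p-value of 0.0288. Stk4, the close relative of Stk3 that encodes Mst1, had 953.8, 1186 and 1084 normalized counts in control hearts and 907.0, 875.3 and 1088 in mimic hearts. Its log2 fold change was -0.26 without mimic replicate 3, with an unadjusted p-value of 0.0311, and -0.17 over all 6 hearts. Stk4 was named after its values were seen. Without mimic replicate 1, 2 of the 22 genes (Wwc2 and Amotl1, also named after their values were seen) were lower at that threshold, where 2.44% of all genes were. Leaving out mimic replicate 3, Stk3 had a log2 fold change of -0.19 (BH-adjusted p = 0.525, limma).

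Most of the listed Yap/Taz target genes had lower values in mimic hearts, and none passed the adjusted threshold. Of 21 genes, 16 were lower and 5 higher, with a median log2 fold change of -0.15. Over all genes tested 49.2% were lower, and over the 9703 genes in the range of levels of the 10 Hippo genes 50.9% were lower, with a median of 0.00. That range was not matched to the target genes. Several of them lie outside it, among them Ctgf, Axl, Ankrd1 and Ccdc80 above it and Fjx1 below it. At an adjusted p-value under 0.05 (limma, BH), 0 of the 21 were called. At an unadjusted p-value under 0.05, Ctgf, Tgfb2, Fjx1 and Axl were lower (at 0.0118, 0.0142, 0.0198 and 0.0409) and 0 of 21 were higher, against 2.63% and 1.39% of all genes. The source data of the study list Ctgf and Tgfb2 among the dysregulated genes that it measured again by qRT-PCR, so their direction is not independent evidence. Control and mimic values were fully apart for 5 of the 21, these 4 and Asap1, all lower in mimic hearts, where 5.3% of all genes were fully apart and lower. Several of these genes also answer to other signals, among them Tgf-beta and mechanical load.

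Ctgf (Ccn2), a secreted matrix protein and a standard readout of Yap, had 9893, 13760 and 13400 normalized counts in control hearts and 9841, 7751 and 7720 in mimic hearts. Control replicate 1 and mimic replicate 1 were nearly level, and the other hearts were well apart. For Ctgf the log2 fold change was -0.54 (standard error 0.17; BH-adjusted p = 1, limma). Tgfb2, a secreted growth factor, had 1474, 1443 and 1628 in control hearts and 1377, 1087 and 968.2 in mimic hearts. Its log2 fold change was -0.42 (standard error 0.14; BH-adjusted p = 1, limma). The highest mimic heart of Tgfb2 lay just under its lowest control heart.

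Fjx1, a secreted protein related to the Drosophila gene four-jointed, had 169.1, 166.9 and 188.7 normalized counts in control hearts and 145.2, 125.8 and 128.8 in mimic hearts. Its log2 fold change was -0.39 (standard error 0.14; BH-adjusted p = 1, limma). Axl, a receptor tyrosine kinase found on macrophages and stromal cells, had 7453, 7787 and 7551 in control hearts and 6455, 5902 and 6635 in mimic hearts. The control values of Axl had a CV of 2.26%, and its log2 fold change was -0.26 (standard error 0.11; BH-adjusted p = 1, limma).

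Ankrd1 and Ccdc80 were, with Ctgf, the 3 most abundant target genes per kb. Ankrd1, a stress-induced protein of the cardiomyocyte sarcomere and nucleus, had 47820, 50270 and 46660 normalized counts in control hearts and 53270, 55410 and 27770 in mimic hearts. Mimic replicates 1 and 2 were above every control heart and mimic replicate 3 was far below them. The log2 fold change of Ankrd1 was -0.15 (standard error 0.29; BH-adjusted p = 1, limma) and turned to 0.17 without mimic replicate 3. Ccdc80, a matrix protein, had 10520, 8576 and 11520 in control hearts and 10360, 9180 and 10990 in mimic hearts. Its log2 fold change was 0.00 (standard error 0.15; BH-adjusted p = 1, limma).

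The number of target genes lower at an unadjusted p-value under 0.05 depended on single hearts. It was 4 over all 6 hearts and 7 without mimic replicate 3, where 6.08% of all genes were lower at that threshold. It was 4 without mimic replicate 1, 2 without mimic replicate 2 and 0 without control replicate 3, where 2.44%, 1.96% and 2.1% of all genes were. The median log2 fold change of the target genes was -0.24 without mimic replicate 1. Ctgf, Tgfb2, Fjx1 and Axl were lower without either mimic heart, at -0.66, -0.56, -0.45 and -0.28 without replicate 1 and at -0.48, -0.31, -0.37 and -0.30 without replicate 3. Ccdc80 was at -0.01 and -0.05.

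**Figure D5:**
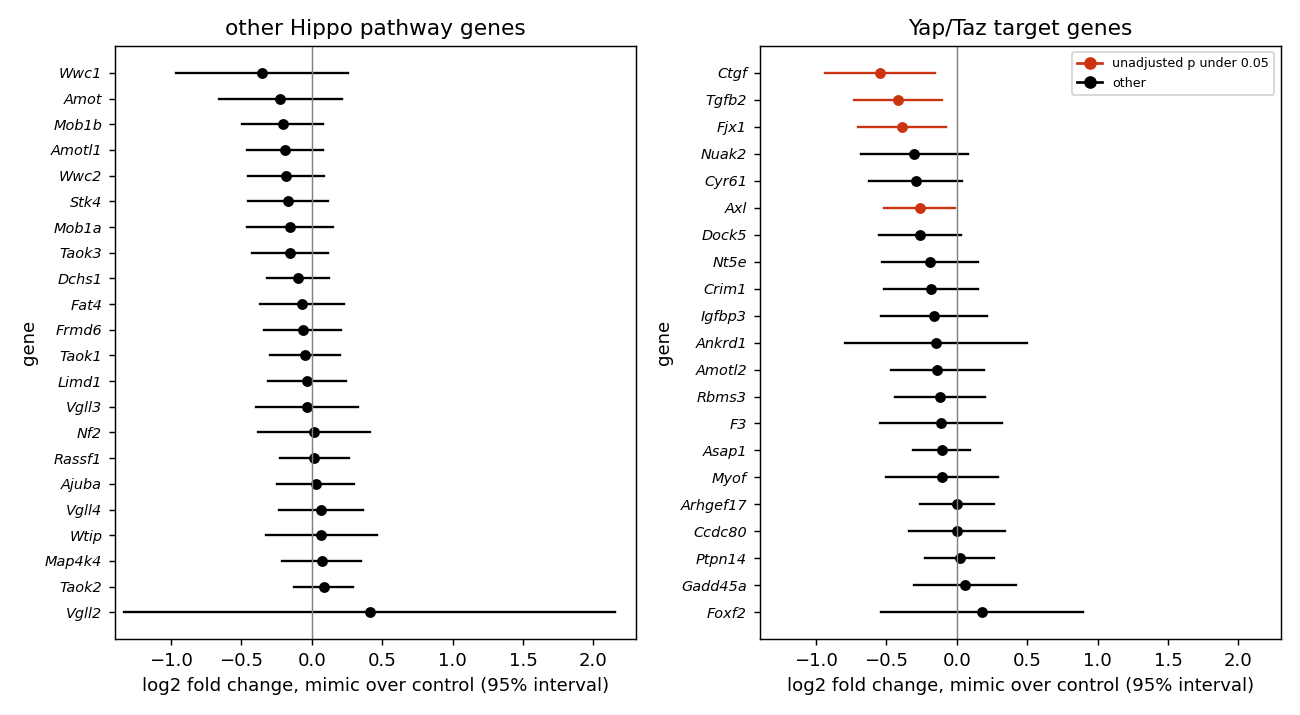
Log2 fold changes with 95% intervals (limma), miR-19a/19b mimic over control mimic, of 22 other Hippo pathway genes (left) and 21 Yap/Taz target genes (right), sorted by size. Red marks an unadjusted p-value under 0.05, which 0 of 22 pathway genes and 4 of 21 target genes had, all 4 lower. The wide interval of Vgll2 rests on at most 5.53 normalized counts per heart.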

How the data were processed

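Per the labels and the processing notes of the submitters, polyadenylated RNA was made into libraries with a kit that the labels do not describe as stranded, reads were aligned with STAR (2.5.1b) and counted with HTSeq (0.6.0), and DESeq2 (1.10.1) is named. The authors' methods name edgeR. The signal deposited by the authors is a normalized count per gene, and 100% of values were whole reads (tolerance 0.01) once multiplied by a size factor between 0.905 and 1.16. The notes name mm9, but the positions fit GRCm38: of the 25884 gene identifiers found in GENCODE M21, 82.7% had the same start and end. The chromosome was the same for 99.9%, a share that does not separate the builds. The start or the end differed for the other genes.

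Groups of 3 hearts were compared with limma (3.58.1, R 4.3.3, trended prior) on log2(normalized count + 1) for genes with a mean of at least 1. The test planned for counts was edgeR. The deposited values needed limma, and edgeR (4.0.16) and DESeq2 (1.42.0) on recovered reads were alternatives. The tests were tried on simulated reads with set changes larger than any estimate for the Hippo genes and no heart that stood apart. That trial does not show how the tests do on small differences. Levels per kb used the union of exons in GENCODE M21. Shared sequence was sought with blastn (2.17.0, at least 95% over 150 bases). Replicate hearts differed by far more than counting error. The deposited fold changes and p-values of the authors were not used. Genes named were the 10 Hippo genes and, of the other lists, those with an unadjusted p under 0.05 and the 3 highest per kb. The 10 genes and all lists were chosen with earlier results of these data known. The skeletal muscle list had been chosen after its values were seen.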

Additional observations from a re-analysis of the deposited data

How the results depend on the processing

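Across 14 alternatives per gene, 0 of the 10 Hippo genes reached an adjusted p-value under 0.05 (limma, DESeq2 or edgeR, BH; smallest 0.525), and 5 of them (Wwtr1, Lats1, Lats2, Stk3 and Sav1) had a lower level in mimic hearts throughout. The alternatives refit the same hearts, and a changed filter or a replicate block cannot change the estimate of a gene. A shared direction across the alternatives is therefore not repeated support. Yap1 turned to -0.0184 with the cardiomyocyte covariate. With each heart left out in turn, log2 fold changes ranged from -0.0971 to 0.12 for Yap1, -0.33 to 0.0254 for Tead1, -0.0505 to 0.30 for Tead2, -0.0411 to 0.084 for Tead3 and -0.0116 to 0.22 for Tead4. Genes called at an adjusted p-value under 0.05 over the whole table were 28 lower and 1 higher in DESeq2 and 70 lower and 12 higher with the covariate. They ranged from 0 to 164 lower and 0 to 383 higher as each heart was left out, the largest counts without miR-19a/19b mimic replicate 3. With the covariate, 1 Hippo gene (Tead1), 4 other pathway genes and 8 target genes were lower at an unadjusted p-value under 0.05, where 5.24% of all genes were. As hearts were left out these counts ranged from 0 to 0, 0 to 3 and 0 to 7, and the share of all genes from 1.75% to 6.08%. With the lengths in the authors' table, the Tead1 share in control hearts was 55.2%. With TMM factors, 0 Hippo genes had groups that did not overlap. The causes of these shifts were not tested. The replicate numbers did not pair the hearts (correlations of deviations -0.0085, -0.0213 and -0.115). With the replicate block, 0 genes were called lower and 0 higher, no Hippo gene had an unadjusted p-value under 0.05, and 3 target genes did, all lower, where 2.05% of all genes were. No heart correlated best with its own number. With 3 hearts per group, the 95% intervals in the report show how large a difference in each Hippo gene these data leave possible.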
